A study of Mus musculus with 6 samples.

Results

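The 9 genes described here encode 8 enzymes of heme biosynthesis (Alas1, Alas2, Alad, Uros, Urod, Cpox, Ppox and Fech) and Slc25a38, the carrier that brings glycine into mitochondria for the first step. They were picked by gene symbol from the 24063 symbols in the deposited counts, with earlier results of these data known. All 9 were among the 14145 genes that passed the filter on low counts. RNA was sequenced from LSK cells, which were sorted from bone marrow as negative for lineage markers and positive for c-Kit and Sca-1 and include haematopoietic stem cells with their first progeny. Of the 6 libraries, 3 were Asxl2-/- and 3 were wild type, all on the C57BL/6 strain. Both groups carried the Mx1-cre transgene and received pIpC, so the controls share the Cre and the interferon-like stimulus. The Mx1 promoter is induced by interferon and is not restricted to blood cells. The floxed Asxl2 alleles lose exon 11 on recombination. The age of the animals sequenced is not given in the sources used here. The methods of the study speak of biological replicates, and p-values measure the spread between these samples.

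Heme is an iron-containing porphyrin made in steps that start in the mitochondrial matrix, pass through the cytosol and end in the mitochondria again. The first step, the joining of glycine and succinyl-CoA into 5-aminolevulinate, sets the rate and is carried out by Alas1 in nearly all cells and by Alas2 in developing red cells. Every cell needs heme for cytochromes and other hemoproteins, while erythroid cells make far larger amounts for haemoglobin and raise the whole set of enzymes as they mature, with Gata1 and Klf1 among the regulators.

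Promoter sequence is shown for 4 of the genes, because the largest differences between genotypes were estimated for Cpox and Slc25a38 and because Alas1 and Alas2 carry out the same step. Each run is the 250 bases before the transcription start on the strand of the gene, from RefSeq on GRCm38.p6. The windows lie at chr16:58669958-58670207 (plus strand, Cpox), chr9:120110132-120110381 (plus strand, Slc25a38), chrX:150547167-150547416 (plus strand, Alas2) and chr9:106247955-106248204 (minus strand, Alas1). Capitals mark matches, on either strand, to AGATAA or TGATAA, the letters bound by Gata factors, or to CACACCC, bound by Klf1.
Cpox: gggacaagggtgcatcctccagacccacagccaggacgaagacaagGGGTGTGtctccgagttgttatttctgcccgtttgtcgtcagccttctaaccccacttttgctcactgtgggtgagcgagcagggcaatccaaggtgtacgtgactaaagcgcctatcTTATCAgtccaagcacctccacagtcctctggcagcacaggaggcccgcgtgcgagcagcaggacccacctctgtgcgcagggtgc
Slc25a38: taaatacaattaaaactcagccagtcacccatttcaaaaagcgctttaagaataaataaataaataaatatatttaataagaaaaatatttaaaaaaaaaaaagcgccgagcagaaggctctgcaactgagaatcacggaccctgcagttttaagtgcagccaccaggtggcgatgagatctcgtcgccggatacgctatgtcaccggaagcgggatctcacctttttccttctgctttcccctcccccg
Alas2: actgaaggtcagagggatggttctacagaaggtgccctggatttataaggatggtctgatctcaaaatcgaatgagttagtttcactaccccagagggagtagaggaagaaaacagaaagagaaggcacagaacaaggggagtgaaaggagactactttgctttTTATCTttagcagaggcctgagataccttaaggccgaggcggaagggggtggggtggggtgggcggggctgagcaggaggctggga
Alas1: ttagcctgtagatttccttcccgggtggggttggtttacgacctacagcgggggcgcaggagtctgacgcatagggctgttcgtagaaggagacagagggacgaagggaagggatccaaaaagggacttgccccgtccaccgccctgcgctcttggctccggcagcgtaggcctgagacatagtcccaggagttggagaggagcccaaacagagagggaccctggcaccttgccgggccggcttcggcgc
Every match lies on the strand opposite to the gene, so it reads as its reverse complement here. In Cpox a TGATAA match lies 86 bases before the start and a CACACCC match 204 bases before it. Alas2 has an AGATAA match 86 bases before its start. In Slc25a38 and Alas1 none of these letter strings was found in the window shown. Windows were held for 8 of the 9 genes, with none for Fech, and 3 of the 11 windows of these 8 genes held AGATAA or TGATAA, the further one being at a second start of Uros. Among all 32851 windows of this length, 16.6% held either string and 6.93% held CACACCC.

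The deposited tables were of 2 kinds, which bears on every value given. Asxl2-/- replicates 1 and 3 and wild type replicate 2 came as 1 count per transcript (gene-count files, 25528540 to 29136012 counts in all). Asxl2-/- replicate 2 and wild type replicates 1 and 3 came as 1 count per exon (exon-count files, 53147729 to 55032075 counts). A read across a splice junction can be counted once in each exon it touches, so the level of a gene is best compared within a kind of file. Levels are given as CPM, that is counts scaled to a common library total after TMM normalisation, and differences as log2 fold changes of Asxl2-/- over wild type from a fit with the kind of file as a covariate. The genotype of the libraries was checked at Asxl2 itself. In the exon-count files, exon 11 took 0.583% of the Asxl2 counts in Asxl2-/- replicate 2 (95% Wilson interval 0.404 to 0.841), against 10.3% and 12.0% in wild type replicates 1 and 3. Gene-count files cannot show this exon. The Asxl2-/- libraries had 49540 to 66689 Xist counts and at most 2 counts of any of Ddx3y, Eif2s3y, Kdm5d and Uty, whereas the wild type libraries had 590 to 3194 Xist counts and at least 1026 of each Y-linked gene, so genotype and sex cannot be told apart.

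All 9 genes had a lower estimate in Asxl2-/- LSK cells, although Alas1 and Alas2 turned to 0.04 and 0.03 with scaling by library size only, and none passed the test. The median log2 fold change was -0.37, against 0.00 over all genes tested. By edgeR's quasi-likelihood test with Benjamini-Hochberg adjustment over all genes, 0 of the 9 had an adjusted p under 0.05, where 0.304% of all genes tested were called lower and 2.34% were called in either direction. At an unadjusted p under 0.05, 3 of the 9 were lower (Cpox, Slc25a38 and Fech) and 0 higher, against 12.6% of all genes called lower and 15.0% called higher. DESeq2 called the same 3 genes lower at its adjusted threshold, along with 8.12% of all genes. A negative estimate was found for 49.9% of all genes tested. In 5 of the 9, every Asxl2-/- library lay below every control of its kind of file, an order that 23.3% of all genes showed. These 5 were Alad, Uros, Cpox, Fech and Slc25a38. Taken by kind of file, the median was -0.25 (gene-count) and -0.64 (exon-count). The plot of fold changes shows the estimates by gene.

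**Figure D1:**
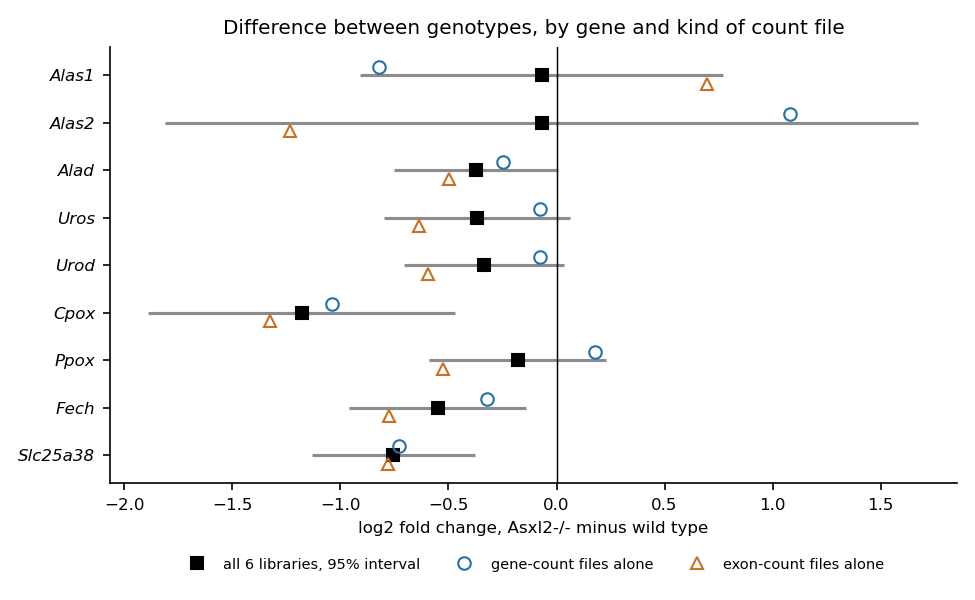
Log2 fold change of Asxl2-/- over wild type for the 9 genes (x axis), with the estimate from all 6 libraries and its 95% interval (squares and lines) and the estimates from each kind of count file alone (open symbols, no interval). The intervals of Cpox, Slc25a38 and Fech lie below 0, and for Alas1, Alas2 and Ppox the 2 kinds of file lie on opposite sides of 0.

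The 2 aminolevulinate synthases had the widest scatter of the pathway. Alas1 (transcript NM_001291835, mm10 chr9:106233455-106247730) stood at 114 and 83.0 CPM in Asxl2-/- replicates 1 and 3 against 172 CPM in wild type replicate 2, and at 151 CPM in Asxl2-/- replicate 2 against 75.0 and 116 CPM in wild type replicates 1 and 3. Thus the Asxl2-/- libraries were the lower ones in the gene-count files and the higher one in the exon-count files, and over all 6 libraries the groups overlapped. The log2 fold change was -0.07 (SE 0.345, 95% interval -0.91 to 0.77, edgeR adjusted p = 0.920), with -0.82 in gene-count and 0.70 in exon-count files.

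Alas2, the X-linked erythroid synthase (NM_009653, mm10 chrX:150547417-150570622), was the least abundant of the 9. It had 6.56 and 2.93 CPM in Asxl2-/- replicates 1 and 3 against 2.05 CPM in wild type replicate 2, and 2.27 CPM in Asxl2-/- replicate 2 against 6.49 and 4.51 CPM in wild type replicates 1 and 3. These values rest on 59 to 338 counts a library. The order of the groups was again opposite in the 2 kinds of file, here with Asxl2-/- higher in the gene-count files. The log2 fold change was -0.07 (SE 0.717, 95% interval -1.81 to 1.67, edgeR adjusted p = 0.962), with 1.08 in gene-count and -1.23 in exon-count files. Its interval covers a change of more than 3-fold either way.

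Slc25a38 (NM_144793, mm10 chr9:120110399-120124319), which supplies the glycine used by both synthases, had the smallest p of the 9. It stood at 27.4 and 35.9 CPM in Asxl2-/- replicates 1 and 3 against 52.0 CPM in wild type replicate 2, and at 32.1 CPM in Asxl2-/- replicate 2 against 48.7 and 62.7 CPM in wild type replicates 1 and 3. Within each kind of file, every Asxl2-/- library lay below every wild type library, an order that 23.3% of all genes showed. The log2 fold change was -0.76 (SE 0.155, 95% interval -1.13 to -0.38), a 40.8% lower level, with an edgeR p of 0.0026 and an adjusted p of 0.0646. Gene-count and exon-count files gave -0.73 and -0.78. Without wild type replicate 1 the edgeR adjusted p was 0.0458, in a fit that called 9.33% of all genes in either direction, and without each of the other 5 libraries it ran from 0.0771 to 0.201.

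**Figure D2:**
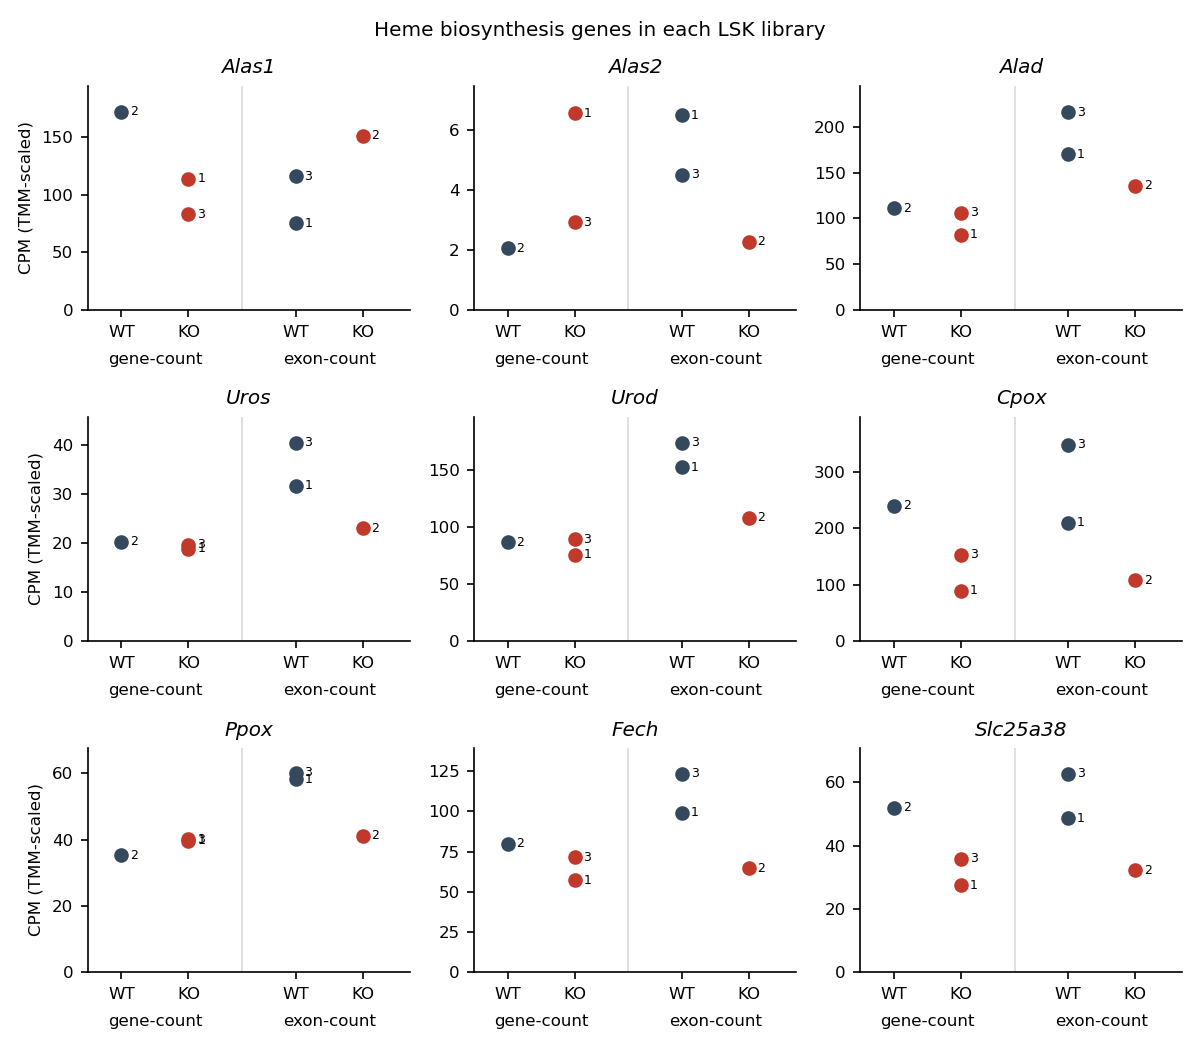
CPM of each gene (y axis, from 0) in the 6 libraries, set out by kind of count file and genotype, with WT for wild type, KO for Asxl2-/- and the replicate number beside each point. For Cpox, Fech and Slc25a38 the KO points lie below the WT points within both kinds of file, while Alas1 and Alas2 change order between them.

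The cytosolic enzymes of the middle of the pathway gave smaller differences. Alad, which joins pairs of aminolevulinate molecules into porphobilinogen, had 82.3 and 106 CPM in Asxl2-/- replicates 1 and 3 against 111 CPM in wild type replicate 2. In the exon-count files it had 135 CPM in Asxl2-/- replicate 2 against 170 and 216 CPM in wild type replicates 1 and 3. The groups did not overlap within a kind of file, and the log2 fold change was -0.37 (SE 0.156, edgeR adjusted p = 0.185), with -0.25 in gene-count and -0.50 in exon-count files. Uros, which closes the ring to uroporphyrinogen III, had 18.8 and 19.7 CPM in Asxl2-/- replicates 1 and 3, just under the 20.3 CPM of wild type replicate 2. Its exon-count libraries lay further apart, at 23.0 CPM in Asxl2-/- replicate 2 and 31.7 and 40.5 CPM in the wild type libraries. Its log2 fold change was -0.37 (SE 0.177, edgeR adjusted p = 0.231). Urod, which trims the side chains to give coproporphyrinogen III, overlapped in the gene-count files, with 75.9 and 89.3 CPM in Asxl2-/- replicates 1 and 3 on either side of the 86.7 CPM of wild type replicate 2. In the exon-count files it had 108 CPM in Asxl2-/- replicate 2 against 153 and 174 CPM in the wild type libraries. The log2 fold change was -0.34 (SE 0.152, edgeR adjusted p = 0.210). For Uros and Urod the gene-count files alone gave a log2 fold change of -0.08 each, and the exon-count files -0.64 and -0.59. Without Asxl2-/- replicate 2, the lone Asxl2-/- exon-count library, the estimates were -0.24 for Alad, -0.08 for Uros and -0.07 for Urod. Without wild type replicate 2, the lone wild type gene-count library, they were -0.64 for Uros and -0.59 for Urod. With either library left out, only 1 kind of file still holds both genotypes. These estimates therefore largely repeat those by kind of file and are not a separate check.

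Of the enzymes that finish heme at the mitochondria, Cpox had the largest estimated difference of the 9. Cpox (NM_007757, mm10 chr16:58670208-58680389) oxidises coproporphyrinogen III to protoporphyrinogen IX. It stood at 89.3 and 153 CPM in Asxl2-/- replicates 1 and 3 against 240 CPM in wild type replicate 2, and at 108 CPM in Asxl2-/- replicate 2 against 210 and 349 CPM in wild type replicates 1 and 3. Within each kind of file, no Asxl2-/- library reached the lowest wild type library, although both groups spread widely. The log2 fold change was -1.18 (SE 0.292, 95% interval -1.89 to -0.47), a 55.8% lower level, with an edgeR p of 0.0064 and an adjusted p of 0.0820. The 2 kinds of file gave -1.04 and -1.33.

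Ppox, the next enzyme, had 39.6 and 40.1 CPM in Asxl2-/- replicates 1 and 3 against 35.2 CPM in wild type replicate 2, and 41.1 CPM in Asxl2-/- replicate 2 against 58.2 and 60.3 CPM in wild type replicates 1 and 3. The Asxl2-/- libraries were the higher ones in the gene-count files and the lower one in the exon-count files. Its log2 fold change was -0.18 (SE 0.169, 95% interval -0.59 to 0.23, edgeR adjusted p = 0.517). Fech, which inserts the iron, had 57.0 and 71.6 CPM in Asxl2-/- replicates 1 and 3 against 79.7 CPM in wild type replicate 2, and 64.6 CPM in Asxl2-/- replicate 2 against 99.3 and 124 CPM in wild type replicates 1 and 3. Within each kind of file, all Asxl2-/- values lay below all wild type values. The log2 fold change was -0.55 (SE 0.169, 95% interval -0.96 to -0.14, edgeR adjusted p = 0.113), with -0.32 and -0.78 in the gene-count and exon-count files. Without Asxl2-/- replicate 2 it was -0.31, an estimate that again rests on the gene-count files. Neighbouring enzymes thus had unlike estimates, from -1.18 for Cpox to -0.18 for Ppox, and the difference between them was not tested.

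Levels of different genes were compared as CPM per kilobase of exon. On this scale Urod was the highest of the 9 in 5 of 6 libraries, from 63.3 to 145 CPM per kilobase. Cpox came first in wild type replicate 2, the only wild type gene-count library, at 75.4 against 72.3 for Urod. That gap is smaller than the spread between wild type libraries, which mixes the 2 kinds of file. The ratio of exon-count to gene-count level in wild type ran from 0.556 (Alas1) to 2.68 (Alas2), with 1.88 for Urod and 1.16 for Cpox. With 1 gene-count library, kind of file and library cannot be told apart in these ratios and ranks. In the other 5 libraries Cpox held rank 2 or 3. The next genes were close together, with Alad at 18.1 to 47.6, Fech at 19.7 to 42.6, Slc25a38 at 17.3 to 39.6 and Ppox at 19.3 to 33.1 CPM per kilobase, ranges that overlap. Uros held rank 8 and Alas2 rank 9 in all 6 libraries, at 10.4 to 22.4 and 1.04 to 3.32 CPM per kilobase. Alas1, at 24.3 to 55.6, held rank 2 in 2 libraries, rank 3 in 2, rank 6 in 1 and rank 7 in 1. On its other listed transcript (NM_020559, 2702 bases) it stood at 28.7 to 63.5 and rank 6, in wild type replicate 3, became rank 4, with the other ranks as before. In wild type LSK cells the Alas1 level per kilobase was 7.41, 53.7 and 16.4 times that of Alas2 in replicates 1 to 3, and in Asxl2-/- cells 11.1, 42.6 and 18.2 times. The housekeeping synthase was thus the more abundant one in every library, and the ratio overlapped between genotypes.

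**Figure D3:**
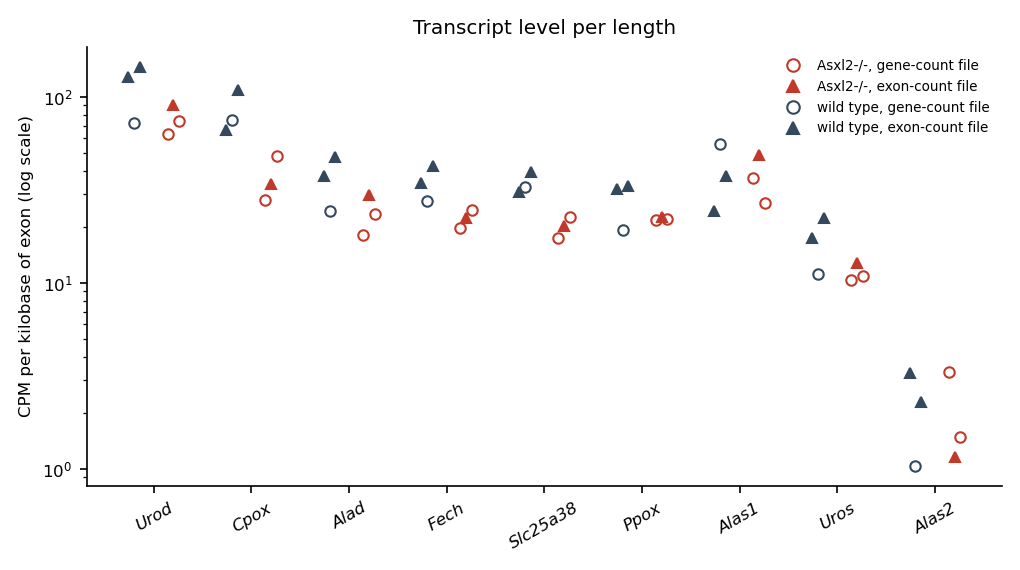
CPM per kilobase of exon (log axis) of the 9 genes in each library, coloured by genotype, with open circles for gene-count and filled triangles for exon-count files. Urod and Cpox are among the 3 highest genes in every library, with Alas1 above Cpox in Asxl2-/- replicates 1 and 2. Alas2 lies below all other genes in every library, and Alas1 spreads from 24.3 to 55.6.

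The level of Alas2 was set beside the globins, which mark haemoglobin-making cells. Hba-a1 stood at 19.3, 5.0 and 8.04 CPM in Asxl2-/- replicates 1 to 3 and at 19.3, 6.25 and 12.6 CPM in wild type replicates 1 to 3, and Hbb-bs at 40.3, 10.5 and 15.7 against 31.0, 11.4 and 16.2 CPM. Both globins were highest in Asxl2-/- replicate 1 and wild type replicate 1, the libraries in which Alas2 was highest. Their reads are shared with near-identical copies listed under other symbols, so these values are uncertain. None of the 6 globins tested passed the threshold in edgeR or DESeq2, nor an unadjusted p under 0.05, with a median log2 fold change of 0.05, and Hba-x, Hbb-bh1 and Hbb-y had at most 3 counts in any library. The sort takes lineage-negative cells, and the study lists an antibody to the red cell marker Ter119, which would remove maturing red cells. Whether globin-bearing cells play a part in the scatter of Alas2 was not tested.

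Erythroid markers had lower estimates in Asxl2-/- as well. The 12 erythroid markers read were Epor, Rhag, Ermap, Sptb, Slc4a1, Ank1, Car1, Car2, Aqp1, Hemgn, Trim10 and Kel. Their summed level was 1350 and 2635 CPM in Asxl2-/- replicates 1 and 3 against 2797 CPM in wild type replicate 2. In the exon-count files it was 1758 CPM in Asxl2-/- replicate 2 against 3733 and 5073 CPM in wild type replicates 1 and 3. Of these 12, 11 had a lower estimate and 7 an unadjusted edgeR p under 0.05 (12.6% of all genes were lower at that p). The median log2 fold change was -1.04, with -0.54 in gene-count and -1.48 in exon-count files. In edgeR 0 passed the adjusted threshold, and in DESeq2 4 were lower, against 8.12% of all genes. Sptb, a spectrin of the red cell membrane skeleton, gave -2.00, Rhag, a red cell membrane transporter, -1.55 and Epor, the erythropoietin receptor, -0.87. In bulk samples, fewer cells of a type and less RNA per cell cannot be told apart. The part of these cells in the lower estimates of Cpox, Fech and Slc25a38 was not tested.

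The level of Alas1 was set beside the summed levels of the marker lists, and the list with the closest order is given here. Its 4 highest libraries were wild type replicate 2, Asxl2-/- replicate 2, wild type replicate 3 and Asxl2-/- replicate 1. These were also the 4 highest, in the same order, for the summed level of 8 neutrophil and monocyte genes (8290, 6697, 5032 and 4544 CPM). The other 2 libraries were in opposite order. Alas1 was higher in Asxl2-/- replicate 3 (summed level 2511 CPM) than in wild type replicate 1 (2561 CPM). This comparison mixes the 2 kinds of file, while within each kind Alas1 and this list had the same order. No other marker list had the same 4 libraries highest, so the match is one picked from several lists. A part of myeloid-primed cells in the level of Alas1 was not tested. After removal of the file kind, the 5 genes whose log2 CPM followed Alas1 most closely over the 6 libraries, of 11540 compared, were BC064078, Mefv, Trem3, Cldn15 and Usb1 (Pearson r 0.999 to 0.995). Those closest to Alas2 were Bcas1, Tprgl, Scd1, Nisch and Khdrbs3 (r 0.998 to 0.989). With 6 libraries and so many genes such values are a description and carry no test. Alas1 and Alas2 themselves had r = -0.64 and Alas2 and Ppox r = 0.73.

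The genes around the pathway were taken from 7 lists, of which 66 of 68 genes were tested and the other 2 (Flvcr1 and Flvcr2) were not analysed here. None of the 66 passed the adjusted threshold in edgeR, while DESeq2 called 19 lower and 1 higher, against 8.12% and 8.35% of all genes. EdgeR called 8 of the 66 when wild type replicate 1 was left out, 2 without Asxl2-/- replicate 3 and 1 without Asxl2-/- replicate 2, fits that called 9.33%, 0.651% and 4.67% of all genes. At an unadjusted edgeR p under 0.05, 27 were lower and 5 higher, against 12.6% and 15.0% of all genes. A lower estimate was found for 50, against 49.9% of all genes, and 31 lay below the controls within both kinds of file, against 23.3%. The median log2 fold change was -0.21.

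In the list of 12 genes for iron uptake, storage and delivery to mitochondria, 7 were lower and 1 higher at an unadjusted p under 0.05, with a median of -0.29. Tfrc, the transferrin receptor, stood at 258, 255 and 359 CPM in Asxl2-/- replicates 1 to 3 and at 474, 630 and 732 CPM in wild type replicates 1 to 3. Within each kind of file the Asxl2-/- values lay below the wild type values, as for 23.3% of all genes. The log2 fold change was -1.14, with an SE of 0.217 and an edgeR adjusted p of 0.0557. Steap3, the reductase that frees iron in the endosome, gave -0.80 and Abcb10, a mitochondrial transporter needed for heme synthesis in red cells, -0.29. Of 14 genes for iron-sulfur cluster assembly, 5 were lower and 1 higher, with a median of -0.21. Here Glrx5, a mitochondrial glutaredoxin that passes clusters on, gave -0.67, Iba57 -0.52 and Fdx1l, a ferredoxin, -0.33.

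Porphyrin and heme carriers showed a similar picture. Of 10 genes, 4 were lower at an unadjusted p under 0.05, with a median of -0.19. Tmem14c, which brings porphyrin back into the mitochondrial matrix, had 101, 146 and 104 CPM in Asxl2-/- replicates 1 to 3 and 192, 176 and 258 CPM in wild type replicates 1 to 3. Here too the Asxl2-/- values lay below the wild type values within each kind of file. The log2 fold change was -0.70, with an SE of 0.131 and an edgeR adjusted p of 0.0541. Abcb6, a porphyrin transporter, gave -0.68 and Pgrmc2, a heme-binding chaperone, -0.27. Of 6 genes that use heme for heme A and cytochrome c or hold it, 4 were lower and 1 higher, with Cycs, cytochrome c itself, at -0.59, Cyc1 at -0.53 and Cox10 at -0.41.

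The other lists were less one-sided. Of 7 genes for substrates and cofactors, 2 were lower, with Shmt2, the mitochondrial enzyme that makes glycine from serine, at -0.40 and Suclg1 at -0.28, while the glycine transporter Slc6a9 stood at 0.67 (unadjusted p = 0.0633). Of 4 genes of heme degradation, 1 was lower, Blvrb, a biliverdin reductase, at -1.12 (edgeR adjusted p = 0.0772), while the heme oxygenase Hmox2 stood at 0.24 and Blvra at -0.15. Among 13 regulators, 4 were lower and 2 higher at an unadjusted p under 0.05. Klf1 gave -1.07 (edgeR adjusted p = 0.103) and Gata1 -0.54 (edgeR adjusted p = 0.171), whereas Nfe2, an erythroid and megakaryocytic factor, gave 0.53 (edgeR adjusted p = 0.0583) and Bach1, a repressor that is released from DNA by heme, 0.32.

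**Figure D4:**
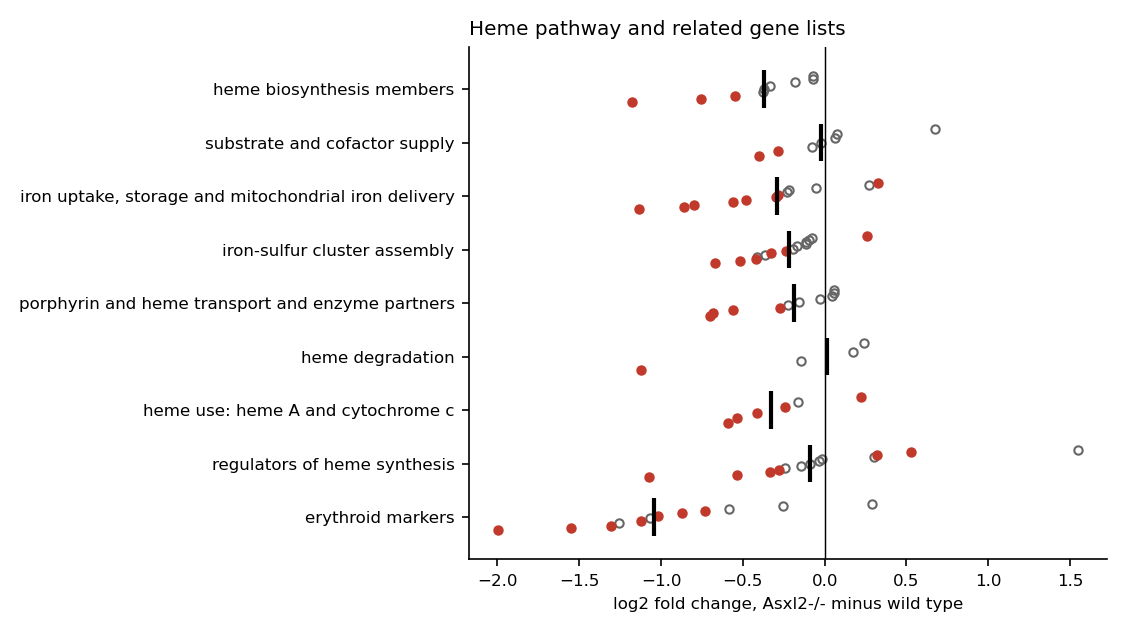
Log2 fold change of Asxl2-/- over wild type (x axis) for each tested gene of the 9, the 7 related lists and the erythroid markers. Points are genes, filled red at an unadjusted p under 0.05, and bars are medians, which run from -1.04 for the erythroid markers to 0.01 for heme degradation.

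Markers of other cells in the sort were read in the same fit. Of 8 megakaryocyte genes tested, 5 were higher at the adjusted threshold. So were 6 of 7 B-lymphoid genes and 1 of 8 stem cell genes (Slamf1), against 288 of all 14145 genes. Summed megakaryocyte levels were 346 to 872 CPM in Asxl2-/- against 173 to 380 CPM in wild type libraries. For the B-lymphoid list they were 150 to 158 against 37.6 to 54.9 CPM, and for the stem cell list 281 to 329 against 137 to 225 CPM. In edgeR no gene passed among 7 mast cell and basophil, 6 T and NK, 8 neutrophil and monocyte and 2 sort gate genes (Kit and Ly6a). At an unadjusted p under 0.05, 1 gene was lower in each of the mast cell and T and NK lists. In the neutrophil and monocyte list 1 was higher. The same counts were found at the adjusted threshold in DESeq2. Of all genes, 12.6% were lower and 15.0% higher at that unadjusted p, and 8.12% and 8.35% in DESeq2. The 2 sort gate genes were called in neither, with log2 fold changes of -1.34 and 0.23. The part of these cells in the levels of the heme genes was not tested.

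Counts by exon were available for Asxl2-/- replicate 2 and wild type replicates 1 and 3, so they give values without a test of genotype. Over the 7 exons of Cpox, the depth-scaled count of Asxl2-/- replicate 2 was 0.365 to 0.429 times the mean of the wild type libraries, a narrow range, so the lower level ran along the whole transcript. For Slc25a38 it was 0.490 to 0.691 times over 7 exons and for Fech 0.516 to 0.678 times over 11. For Alas1 it was 1.51 to 1.81 times over the 10 exons with enough counts. Alad, Urod and Ppox gave 0.679 to 0.785, 0.643 to 0.782 and 0.640 to 0.865 times. The range was wider for Alas2, at 0.242 to 0.828, and for Uros, at 0.570 to 1.126. The highest Uros value was at its first exon, which had 53 counts in Asxl2-/- replicate 2 and 44 and 47 in wild type replicates 1 and 3. The shares of the 7 Cpox exons were close in the 3 libraries, with the last exon at 32.9%, 33.0% and 33.8% of the counts.

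The exon counts also showed which Alas1 start was in use. The first exon of the longest transcript, used for the gene totals, lies at chr9:106247174-106247730 (557 bases) and had 2 counts in Asxl2-/- replicate 2 and 0 of 3910 and 0 of 5491 in wild type replicates 1 and 3, which allows shares of up to 0.0767% and 0.0546%. The first exon of the shorter transcript NM_020559, at chr9:106247785-106247954, had 267, 136 and 207 counts, or 3.21%, 3.36% and 3.63% of the counts of that transcript. The promoter shown for Alas1 is the one before this exon. Since 557 of the 3089 bases of the transcript used for Alas1 held next to no reads, its level per kilobase, and the ratio to Alas2, are understated. Both genotypes used the same start, as far as 1 Asxl2-/- library can show. Intervals and limits cover counting error only.

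**Figure D5:**
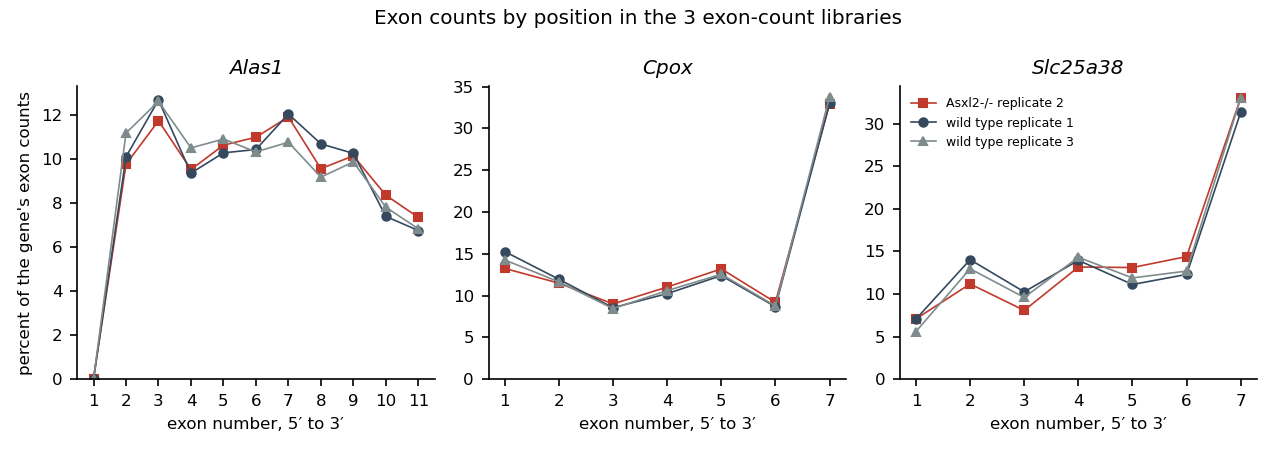
Percent of the exon counts of a gene (y axis) in each exon of Alas1, Cpox and Slc25a38 (x axis, exon number from the 5′ end) in the 3 exon-count libraries. The 3 profiles are alike but not identical, with the first exon of Alas1 at or next to 0. In Cpox the first exon lies at 13.2 to 15.3% and the last at 32.9 to 33.8%.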

How the data were processed

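The values deposited by the authors were whole-number read counts on the mm10 build with RefSeq transcripts, from 6 poly(A), unstranded libraries. Replicates were not pooled. The submitters' processing notes name STAR, featureCounts and DESeq2, and the strand and overlap settings are not given in the sources used here. Each of the 24063 symbols was represented by its longest transcript (4914 symbols had several), and exon counts were summed over its exons. Counts were tested with edgeR 4.0.16 in R 4.3.3 (glmQLFit, glmQLFTest, TMM, filterByExpr) with the kind of file and the group as terms (3 residual degrees of freedom). Two-sided p-values were adjusted by the Benjamini-Hochberg method over the 14145 genes tested, with a threshold of 0.05. Intervals use the t quantile at the degrees of freedom of that fit. The script was tested on simulated data. The study itself tested with Cuffdiff, which needs aligned reads. All pairs of libraries differed by more than counting noise (chi-square per degree of freedom of at least 25.6). The 9 genes, the lists and the tests were chosen with earlier results of these data known. From each list the text names genes past the threshold or else the 3 with the smallest p; Gata1 was added after its values were seen, and values for the globins and erythroid markers are given by level or size. Alternatives were DESeq2 1.42.0, other scalings, filters, transcripts and covariates, the longest exon, each file kind by itself and each library left out in turn. Transcript length and GC trend corrections were added after seeing the data. Some genes of the lists are not reported here. Figures were drawn with Python 3.11.15.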

Additional observations from a re-analysis of the deposited data

How the results depend on the processing

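Cpox, Slc25a38, Fech, Alad, Uros and Urod kept a negative estimate under all 20 alternatives, with ranges of -1.42 to -0.98, -0.88 to -0.65, -0.78 to -0.31, -0.62 to -0.24, -0.64 to -0.08 and -0.60 to -0.07. Not all of these are separate checks. Without Asxl2-/- replicate 2 the estimate rests on the gene-count files, and without wild type replicate 2 on the exon-count files. Against 0 of the 9 genes in the reported fit, DESeq2 called 3 (Cpox, Fech and Slc25a38) and the fit with no file kind covariate 2 (Cpox and Slc25a38), while leaving out 1 library gave 0 to 1, with Slc25a38 called without wild type replicate 1. Of the 66 related genes, against 0, DESeq2 called 20, no file kind covariate 2, GC trend removal 1 (Tfrc, of 63 tested) and leaving out 1 library 0 to 8, with 8 without wild type replicate 1, 2 without Asxl2-/- replicate 3 and 1 without Asxl2-/- replicate 2. The other scalings, filters and transcript choices called 0 in both. Among all genes, the fit with no file kind covariate called 380, GC trend removal 288 of 12397 and leaving out 1 library 9 to 1312. DESeq2 called 2329 of all genes against 331 with edgeR. The cause was not tested.

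Adding the replicate block to the file kind leaves 1 residual degree of freedom. In that fit 6 of the 9 genes and 37 of the 66 passed, along with 5179 of all genes. With the replicate block alone 1 (Cpox) and 2 passed, along with 380 of all genes. The sources do not say that the numbers pair the samples. Same-numbered libraries had correlations of deviations of 0.294, -0.008 and -0.003, all between different kinds of file. With the file kind removed these were 0.635, 1 and 0.388, each library correlating best with its own number, but that removal itself forces the value of 1 and ties the other residuals together, so the pairing stayed undecided.

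The sign of 3 genes depended on the setting. Alas1 was 0.038 with library size only, 0.697 in exon-count files alone and -0.805 to 0.671 when 1 library was left out. Alas2 was 0.0275 with library size only, 0.0954 with the longest exon, 1.08 in gene-count files alone and -1.27 to 1.21 when 1 library was left out. Ppox was 0.177 in gene-count files alone and -0.524 to 0.177 when 1 library was left out. Alas2 rests on as few as 59 counts a library, and its group SDs on the log2 scale were 0.88 and 0.72.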
